A study of Drosophila melanogaster with 12 samples.

Results

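The genes described here are 63 protein coding genes of Drosophila melanogaster that carry a CG number as their name in the deposited table and whose mean level differed at least 8-fold between the ERR[cond.2] and the ERR[cond.19-4] controls. They were selected on their values in the 6 control libraries. A gene was kept when the larger of the control means was at least 5 CPM (the count of a gene in proportion to the library total, scaled to 1e6) and the ratio of the larger to the smaller mean, each with 0.5 added, was at least 8. Of 17558 genes in the table, 7395 are protein coding and CG-named, and 3432 of these reached 5 CPM in a control group. The level was higher in the ERR[cond.2] controls for 62 of the 63 genes and higher in the ERR[cond.19-4] controls for 1, CG13947. A further 3 CG-named genes that passed the same limits were left out by name. The rule divides genes by how they are named, not by what they do, and 62 of 4391 other protein coding genes at that level also passed the limits.

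RNA came from whole adult females, 10 per library, and 12 libraries were sequenced from 3 independent experiments. All females were fed yeast paste and were mutant for ERR, the estrogen-related receptor, except for a copy flanked by FRT sites that heat shock can remove. In ERR[cond.2] females that copy is a tagged ERR::GFP transgene, and the endogenous locus carries the ERR1 and ERR2 alleles. The removable copy of ERR[cond.19-4] females is the endogenous gene itself, in an ERR2 background. ERR2 deletes the coding region of ERR together with parts of Atg18 and CG7979, and the controls carry it too. Knockout females, aged 0 to 2 d, were given a heat shock of 37 °C and a second one after 24 h, while their control siblings were given none, and RNA was collected 7 d after knockout. Each of the 4 groups, ERR[cond.2] control, ERR[cond.2] knockout, ERR[cond.19-4] control and ERR[cond.19-4] knockout, has 3 libraries. Heat shock and loss of ERR cannot be told apart in these groups, and neither can the allele and the rest of the genome of the stock that carries it.

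The deposited columns number the alleles 1 and 2, and the columns numbered 2 were taken as ERR[cond.2], a match that the sources used here do not state. Library totals ran from 17167432 to 20625801 counts. The level of ERR itself was 5.67 to 8.40 CPM in ERR[cond.19-4] controls and 3.39 to 4.14 CPM in the knockouts, with no overlap. ERR[cond.2] libraries ran from 7.48 to 11.8 CPM without and from 9.43 to 10.3 CPM with heat shock. The ERR1 allele, which lacks only a small part of the gene, stays in ERR[cond.2] females, so a count over the whole gene does not check the excision there. The labelled sex was checked on markers of male tissues. None of the 10 accessory gland genes found in the table exceeded 0.163 CPM in any library, with 4 at 0 throughout, and none of 14 testis genes exceeded 0.349 CPM, with 7 at 0 throughout.

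A CG number is the provisional name that a Drosophila gene keeps until it is studied by itself, so a set chosen by such names mixes genes of many kinds. The largest family among the 63 is that of the neprilysins, zinc metallopeptidases of the M13 family that cut signalling peptides outside the cell. Drosophila has a small number of neprilysins, Nep, and a large set of neprilysin-like genes, Nepl, many of which are predicted to have lost catalytic residues. Trypsin-domain serine proteases, the second family, are a very large group in insects with roles in digestion, immunity and reproduction. In the current symbols 23 of the 63 genes have a name other than the CG number and 40 do not. By current symbol or by the protein domain named in the table, 14 are of the neprilysin family, 9 have a trypsin domain, 19 have another domain and 21 have none named. This grouping was made after the values were seen.

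Among the 62 genes higher in ERR[cond.2] controls, the ratio that chose them had a log2 median of 3.73. The largest was that of CG4725 (Nepl13), 36.1-fold, followed by CG14529 (Nepl17) at 35.3-fold, CG17739 at 29.6-fold, CG8586 at 26.2-fold, CG33120 and CG8358 (Nepl12), both at 25.8-fold. Just inside the limit were CG1090 at 8.23-fold, CG30046 at 8.19-fold and CG9451 at 8.07-fold, and just outside it were CG5080 at 7.99-fold, CG14945 at 7.70-fold and CG17322 at 7.41-fold. The mean in ERR[cond.19-4] controls was under 1 CPM for 9 of the 62. These control values chose the genes and are given without a test.

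**Figure D1:**
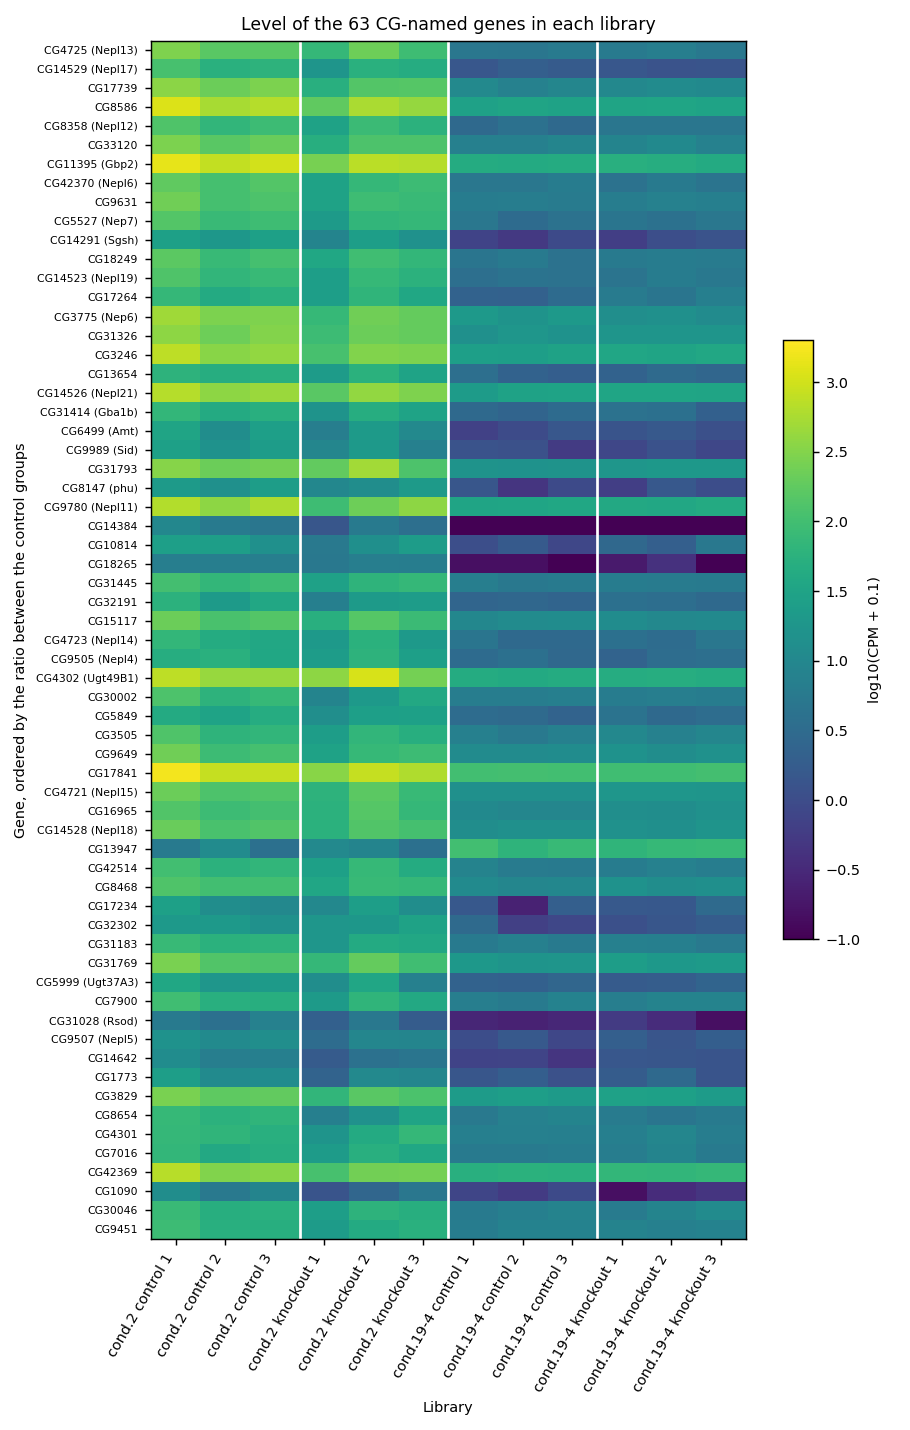
Level of each of the 63 genes in each of the 12 libraries, as log10 of CPM plus 0.1, with genes in rows ordered by the ratio between the control groups. The 6 ERR[cond.2] libraries on the left are brighter on average than the 6 ERR[cond.19-4] libraries on the right in every row but that of CG13947, and ERR[cond.2] knockout 1 is the darkest of its group in 56 of the other 62 rows.

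The 6 knockout libraries had no part in choosing the genes, and females of both stocks in them had been heat shocked. They were used to ask whether the difference between the stocks was also present there. Of the 63 genes, 59 had at least 10 counts in each of the 6 libraries. CG14384, CG18265, CG31028 and CG1090 did not, and passed the filter on low counts only through ERR[cond.2], where they are high, so that their fitted values are not used as a result. In the knockouts 58 of these 59 stood higher in ERR[cond.2], and CG13947 stood higher in ERR[cond.19-4], at an adjusted p under 0.05 in edgeR's quasi-likelihood test over 9770 genes. Among all genes tested 11.0% were called higher in ERR[cond.2] knockouts and 6.41% lower, and among the 9151 with as many counts 11.1% and 6.4%. The adjusted p of the 59 genes ran from 0.000473 for CG32302 to 0.0481 for CG1773. The median log2 difference of the 58 genes was 3.13, which is 8.74-fold, beside a median of 0.00 over all genes with as many counts. The smallest was 1.49, or 2.82-fold, for CG14642. Of the 58, 54 differed at least 4-fold and 30 at least 8-fold. Over all 9770 genes tested, 581 were called with an absolute log2 of at least 1, in either direction. Every ERR[cond.2] knockout library lay above every ERR[cond.19-4] knockout library for 57 of the 58, which held for 21.3% of genes with as many counts. The exception was CG1773, whose level in ERR[cond.2] knockout 1, 2.27 CPM, fell below the 2.84 CPM of ERR[cond.19-4] knockout 2. Over all 12 libraries the ERR[cond.2] values lay above all ERR[cond.19-4] values for 60 of the 62 (8.39% of all genes tested), with CG1773 and CG8654 as the others, and since the rule used the control values nothing is read from that count. With any 1 knockout library left out, 55 to 63 of the 63 genes were called, with CG14384, CG18265, CG31028 and CG1090 included in the count.

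**Figure D2:**
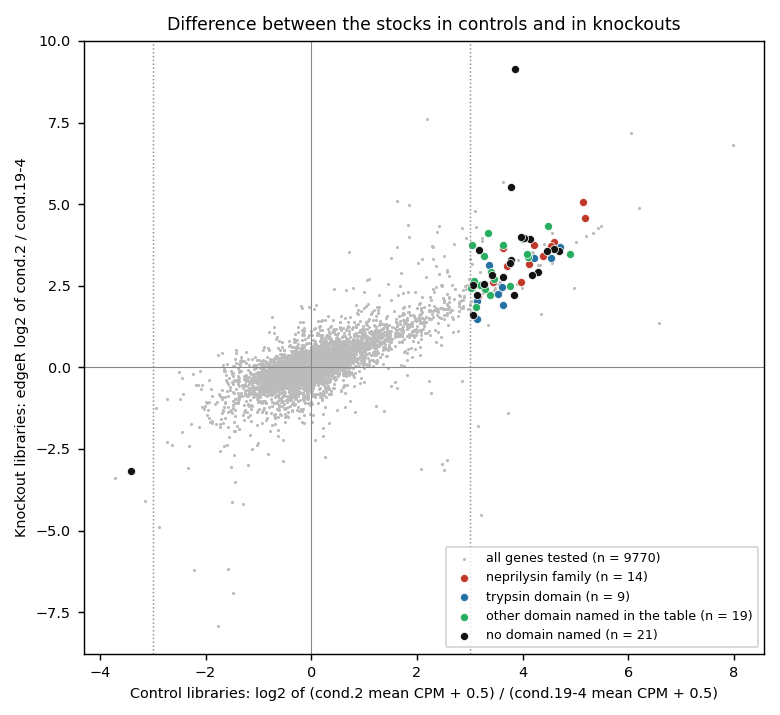
Log2 of ERR[cond.2] over ERR[cond.19-4] in the control libraries (horizontal axis, the values that chose the genes, with dotted lines at the limit of 3) and in the knockout libraries (vertical axis, edgeR fit), for the 9770 genes tested in grey and the 63 genes in colour by class. The 62 coloured points to the right of the upper limit lie at 1.49 or higher on the vertical axis, and CG13947 lies at -3.17. Grey points past the same limit are genes outside the 63. The fitted values of CG14384, CG18265, CG31028 and CG1090 are drawn but not used as a result.

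The neprilysin family contributed 14 genes, and their log2 difference in the knockout libraries ran from 2.20 to 5.06 with a median of 3.55. The largest belonged to Nepl17 (CG14529), at 3R 28872905 to 28875031, whose levels were 111, 54.0 and 59.4 CPM in ERR[cond.2] controls and 17.3, 53.9 and 46.7 CPM in ERR[cond.2] knockouts. In ERR[cond.19-4] females it stood at 1.36, 1.89 and 1.65 CPM in controls and 1.40, 1.16 and 1.20 CPM in knockouts. The stocks did not overlap, and the difference in knockouts was 5.06 ± 0.49 (log2 ± SE, adjusted p = 0.00158, edgeR). Nepl13 (CG4725), at 3R 22758810 to 22761076, was at 294, 160 and 161 CPM in ERR[cond.2] controls and at 72.0, 225 and 91.1 CPM in the knockouts, against 4.75 to 6.79 CPM in all 6 ERR[cond.19-4] libraries. Its log2 difference in knockouts was 4.57 ± 0.49 (adjusted p = 0.00187). Nepl21 (CG14526) and Nepl11 (CG9780) had the highest levels of the family. Per kb of gene length the mean of Nepl21 in ERR[cond.2] knockouts was 122 CPM, that of Nepl11 105 CPM and that of the lowest, Nepl5 (CG9507), 3.33 CPM. Nepl21 was at 161, 399 and 290 CPM in ERR[cond.2] knockouts and 32.8 to 34.2 CPM in ERR[cond.19-4] knockouts. Nep6 (CG3775) and Nep7 (CG5527) are the members that carry a neprilysin name proper, and they differed in knockouts by log2 3.75 ± 0.41 and 3.70 ± 0.46.

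The other genes of the family were examined in the same test. Of 26 neprilysin family genes 23 were tested, and of the 9 that are not among the 63, 4 (44.4%, beside 11.0% of all genes) were called higher in ERR[cond.2] knockouts and 0 lower, with a median log2 difference of 0.51. Of these Nep4 was higher by log2 3.15, Nepl9 by 1.15 and Nep2 by 0.42. Nepl20, also among the 4, had means of 2.08 CPM in ERR[cond.2] knockouts and 0.396 CPM in ERR[cond.19-4] knockouts. It passed the filter on low counts only through ERR[cond.2], so its fitted value is not used as a result. Nep4 is a neprilysin found in muscle among other tissues, and its mean level was 26.4 CPM in ERR[cond.2] knockouts and 3.19 CPM in ERR[cond.19-4] knockouts. In the controls its means were 24.3 and 2.53 CPM, which pass the 8-fold limits, and Nep4 is outside the 63 because it is not CG-named. As Nep4 and Nepl20 are both in the count of 4, nothing is read from the share of 44.4%. The 5 that were tested and not called were Nepl10 at log2 0.59, Nep3 at 0.51, Nepl3 at 0.43, Nepl16 at -0.21 and Nep1 at -0.33, and Nepl7, Nepl8 and Nep5 were too low to test. Neprilysin-like genes are similar in sequence, and the sources used here do not say how reads that align to more than one of them were counted, so values of close copies are uncertain to that degree.

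**Figure D3:**
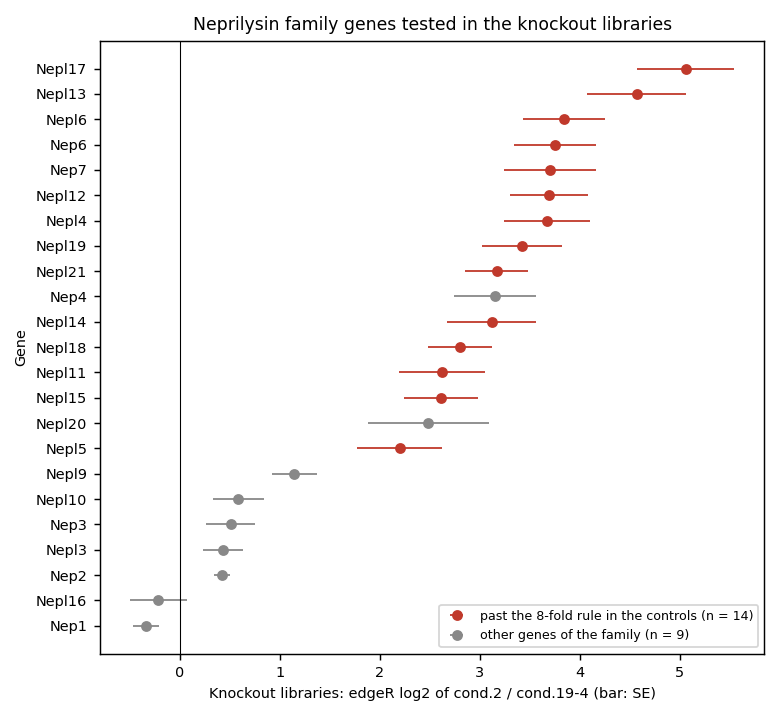
Log2 of ERR[cond.2] over ERR[cond.19-4] in the knockout libraries with its SE for the 23 neprilysin family genes tested. The 14 CG-named genes that passed the 8-fold limits in the controls are in red and the other 9 in grey. Nep4, in grey, passed the same limits but is not CG-named. The red points run from 2.20 for Nepl5 to 5.06 for Nepl17, and the grey points from -0.33 for Nep1 to 3.15 for Nep4. The grey point of Nepl20, with a mean of 0.396 CPM in ERR[cond.19-4] knockouts, is not used as a result.

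The trypsin-domain genes numbered 9, with log2 differences in the knockout libraries from 1.49 to 3.70 and a median of 2.46. CG8586, at 2R 8692796 to 8696245, had the highest level of these per kb, a mean of 147 CPM in ERR[cond.2] knockouts, and the largest difference. Its levels were 1206, 556 and 657 CPM in ERR[cond.2] controls, 176, 578 and 417 CPM after knockout and 28.8 to 33.3 CPM in the 6 ERR[cond.19-4] libraries, so that the stocks were apart at every value. The difference in knockouts was 3.70 ± 0.41 (log2 ± SE, adjusted p = 0.00207). CG9631, CG31326 and CG9649 lie close together on 3R and differed in knockouts by log2 3.36, 3.35 and 2.25. Between CG31326 and CG9631 lie CG33109, lower in ERR[cond.2] knockouts (log2 -0.51), and Sp212, higher there (log2 1.23). CG17234 differed by 3.13, CG3505 by 2.46 and CG1773 by 2.03. CG14642, CG30002 and the predicted sugar transporter CG8654, which is of another family, were among the 4 smallest differences of the 62. CG30002 was at 8.48, 21.2 and 39.0 CPM in ERR[cond.2] knockouts against 6.19 to 6.94 CPM in ERR[cond.19-4] knockouts (log2 1.90 ± 0.47, adjusted p = 0.0309). Its lowest ERR[cond.2] library was thus close to the other stock. CG30002, CG14642, CG1773 and CG8654 lost their calls when any knockout library other than ERR[cond.2] knockout 1 was left out, with adjusted p-values of up to 0.145. The other trypsin-domain genes were called in both directions. Of 254 such genes, 137 outside the 63 were tested, 28 (20.4%, beside 11.0% of all genes) were called higher and 27 (19.7%, beside 6.41%) lower in ERR[cond.2] knockouts, with a median log2 difference of 0.01.

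Enzymes and transporters made up most of the 19 genes with another domain, whose log2 differences in knockouts ran from 1.85 to 4.32. Without CG1090 their median was 2.81. The largest was that of Sgsh (CG14291), the sulfatase that removes sulfate from heparan sulfate in lysosomes. It was at 8.74, 25.6 and 15.0 CPM in ERR[cond.2] knockouts and at 0.518, 0.962 and 1.14 CPM in ERR[cond.19-4] knockouts, a difference of 4.32 ± 0.49 (log2 ± SE, adjusted p = 0.00221). Gba1b (CG31414), the fly glucocerebrosidase, which breaks down glucosylceramide in lysosomes, differed by log2 3.37, the second sulfatase-domain gene CG32191 by 2.48 and the predicted acid phosphatase CG9451 by 2.42. None of the other 7 sulfatase-domain genes tested was called in edgeR, beside 11.0% higher and 6.41% lower among all genes. Nothing is read from so few genes.

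Of the genes that act on lipids and small molecules, CG17841, with the LAG1 domain of ceramide synthases, was second of the 63 per kb in ERR[cond.2] knockouts, at a mean of 241 CPM. It was at 1698, 847 and 839 CPM in ERR[cond.2] controls and at 344, 842 and 610 CPM in ERR[cond.2] knockouts. All 6 ERR[cond.19-4] libraries lay between 95.2 and 105 CPM, and the difference in knockouts was 2.70 ± 0.30 (log2 ± SE, adjusted p = 0.00214). The highest per kb was Ugt49B1 (CG4302), at a mean of 323 CPM. Ugt49B1 and Ugt37A3 (CG5999) encode UDP-glycosyltransferases, enzymes that attach sugars to small lipophilic molecules. Ugt49B1 was at 375, 1077 and 249 CPM in ERR[cond.2] knockouts and at 44.3 to 47.3 CPM in ERR[cond.19-4] knockouts, a difference of 3.74 ± 0.54 (adjusted p = 0.00465). In the UDP-glycosyltransferase family of 35 genes, 26 outside the 63 were tested, 17 (65.4%, beside 11.0% of all genes) were called higher and 1 (3.85%, beside 6.41%) lower in ERR[cond.2] knockouts, with a median log2 difference of 0.96.

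The transporters and channels were Amt (CG6499), an ammonium transporter, the ABC transporter CG31793, the sugar transporter CG8654, the cation-transporting ATPase CG4301, the sodium-calcium exchanger CG1090, and CG8468 and CG42514 of the major facilitator superfamily. CG31793 was at 183, 508 and 127 CPM in ERR[cond.2] knockouts and at 18.3 to 19.8 CPM in ERR[cond.19-4] knockouts (log2 3.94 ± 0.53, adjusted p = 0.00384). Amt differed by log2 3.49, CG42514 by 2.93, CG4301 by 2.63, CG8468 by 2.23 and CG8654 by 1.85. CG1090 had a mean of 2.89 CPM in ERR[cond.2] knockouts and of 0.223 CPM in those of ERR[cond.19-4], the latter on 1 to 7 counts per library. CG17739 and CG30046 have thrombospondin type 1 repeats, as extracellular matrix and secreted proteins often do, and differed by 3.47 and 2.44. Of the other 4 thrombospondin-repeat genes tested 0 were called, beside 11.0% higher and 6.41% lower among all genes, and nothing is read from so few. CG32302, with a chitin-binding domain, had the lowest adjusted p of the 63. It was at 18.3, 18.6 and 29.6 CPM in ERR[cond.2] knockouts and 1.04, 1.32 and 1.72 CPM in ERR[cond.19-4] knockouts (log2 4.11 ± 0.26). Of the others, CG31183 has a guanylate cyclase domain and differed by 2.41, and CG7900 has an amidase domain and differed by 2.53.

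Of the 21 genes with no domain named, 20 were higher in ERR[cond.2], with log2 differences in knockouts of 1.61 or more. The median was 2.94 over the 17 of them with at least 10 counts in each knockout library. Gbp2 (CG11395), at 2R 17137240 to 17139595, encodes a growth-blocking peptide, a secreted cytokine-like factor of insects. It was at 1375, 809 and 1019 CPM in ERR[cond.2] controls and at 257, 715 and 651 CPM in ERR[cond.2] knockouts, against 42.4 to 51.5 CPM in the 6 ERR[cond.19-4] libraries. The stocks were far apart in each comparison, and the difference in knockouts was 3.61 ± 0.37 (log2 ± SE, adjusted p = 0.00174). Its neighbour Gbp, 337 bp away, was at means of 9.08 CPM in ERR[cond.2] and 8.67 CPM in ERR[cond.19-4] knockouts and was not called (log2 0.16). The neighbour on the other side, CG43107, had means of 0.411 CPM in ERR[cond.2] and 1.37 CPM in ERR[cond.19-4] knockouts. At so low a level its fitted value is not used as a result. Gbp2 had the highest mean of these genes per kb in ERR[cond.2] controls, 469 CPM, followed by CG3246 at 330 CPM and CG42369 at 321 CPM, which differed in knockouts by log2 2.82 and 1.61. CG33120, among the 6 with the largest ratio in the controls, differed by 3.56. Sid (CG9989), the stress induced DNase, differed by 3.96 and phu (CG8147) by 4.01. Rsod (CG31028), related to superoxide dismutase, had a mean of 2.92 CPM in ERR[cond.2] knockouts and of 0.257 CPM in those of ERR[cond.19-4], the latter on 1 to 9 counts per library. The others without a domain lay between 2.23 for CG3829 and 3.94 for CG13654, apart from those described next.

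A pair of these genes was almost silent in one stock. CG14384, at 3R 12965938 to 12967712, had no count in any of the 6 ERR[cond.19-4] libraries. In ERR[cond.2] it was at 9.60, 5.82 and 4.72 CPM in controls and at 1.32, 5.58 and 3.64 CPM in knockouts. With 3 counts over the group as the floor, its level was at least 133-fold higher in ERR[cond.2] controls and at least 68.2-fold higher in ERR[cond.2] knockouts. Cyp304a1, a cytochrome P450 gene 15 bp away that is not among the 63, showed a similar contrast, with means of 169 CPM in ERR[cond.2] and 0.169 CPM in ERR[cond.19-4] controls, and of 61.6 and 0.582 CPM in knockouts (log2 6.80, adjusted p = 0.00163). CG7381, 63 bp away on the other side, was at 40.7 and 28.8 CPM in knockouts and was not called (log2 0.58, adjusted p = 0.322). CG14384 also overlaps grsm on the same strand, and grsm was lower in ERR[cond.2] knockouts (log2 -0.50). CG18265, at 3L 17439401 to 17457461, was at 6.79, 6.87 and 6.79 CPM in ERR[cond.2] controls and at 5.22, 6.69 and 6.63 CPM in knockouts, and at 0 to 0.304 CPM in ERR[cond.19-4]. Its ERR[cond.19-4] libraries held 0 to 6 counts each, so no fitted difference is given. The neighbouring genes of CG18265 were not called, CG32176 at log2 -0.01 and CG7603 at 0.09.

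CG18265 and CG32302 were also the steadiest within ERR[cond.2]. The highest of the 6 ERR[cond.2] libraries was 1.32 times the lowest for CG18265 and 1.96 times for CG32302, whereas the median over the 62 genes was 4.45. In the 6 ERR[cond.19-4] libraries the same ratio had a median of 1.59.

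CG13947 was the single gene that ran the other way. It lies at 2L 779173 to 779655, has no domain named in the table, and was at 101, 63.6 and 77.9 CPM in ERR[cond.19-4] controls and 65.6, 77.2 and 77.8 CPM in ERR[cond.19-4] knockouts. In ERR[cond.2] it was at 5.67, 11.9 and 3.80 CPM in controls and at 10.5, 8.58 and 3.81 CPM in knockouts. The stocks were separate in both arms, and the difference in knockouts was -3.17 ± 0.30 (log2 ± SE, adjusted p = 0.0016).

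The positions in the table are those of the Ensembl 115 annotation of BDGP6 for 62 of the 63 genes, all but CG17841. Chromosome arm 3R held 31 of the genes, 49.2%, beside 25.3% of all CG-named genes at 5 CPM or more. Arms 2L and 2R held 12 each, 19.0%, beside 18.3% and 18.7%. Arm 3L held 5 (7.94% beside 19.4%), the X chromosome 3 (4.76% beside 17.9%) and chromosome 4 held 0. Several of the genes on 3R lie in rows of one family. Nepl13, Nepl14 and Nepl15 lie between 22758810 and 22766172, and Nepl17, Nepl18, Nepl19 and Nepl21 lie between 28872905 and 28886015 with Nepl20 among them. CG9649, CG31326 and CG9631, with trypsin domains, lie between 14215459 and 14226762 on the same arm, with CG33109 and Sp212 among them. Nepl5 and Nepl6 are 16 bp apart on 2L, the trypsin-domain genes CG30002 and CG1773 lie between 9704384 and 9707580 on 2R, and the thrombospondin-repeat genes CG17739 and CG30046 lie between 12306528 and 12317573 on 2R with CG30203 between them. In all 16 genes lay within 10 kb of another of the 63. No share for other genes stands beside that count, and nothing is read from it.

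The genes next to the 63 were examined in the same test. Of 107 distinct neighbours that are not among the 63, 79 were tested, 23 (29.1%, beside 11.0% of all genes) were called higher in ERR[cond.2] knockouts and 5 (6.33%, beside 6.41%) lower, and their median log2 difference was 0.16. The highest of those called were Cyp304a1 at log2 6.80, Ela at 2.57 and CG8738 at 2.54, apart from CG31792 and CG14527 (Nepl20). CG31792 and CG14527 had means of 4.47 and 2.08 CPM in ERR[cond.2] knockouts and of 0.409 and 0.396 CPM in knockouts of the other stock. At so low a level their fitted values are not used as a result, though both are in the count of 23. Cyp304a1 and Ela passed the 8-fold limits in the controls as well, at 254-fold and 14.8-fold, and are outside the 63 because they are not CG-named. The count of 23 thus holds genes that the control values would also have chosen, and nothing is read from its share. In the controls CG31792 was at 0.834 CPM in ERR[cond.2] and at 0.317 CPM in the other stock. Of the 63, 31 overlap another gene of the table and 30 a protein coding one. The use of strand in counting was not stated in what was read here, so reads in such overlaps cannot be told apart. Of the 28 protein coding partners 0 passed the 8-fold limits, and of 22 tested 4 (18.2%, beside 11.0% of all genes) were called higher and 1 (4.55%, beside 6.41%) lower in ERR[cond.2] knockouts. The 29 higher genes with no such overlap and at least 10 counts in each knockout library had a lowest log2 difference of 1.85. The median length of the 63 genes was 2197 bp, beside 1765.5 bp for CG-named genes at 5 CPM or more.

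The genes moved together from library to library within ERR[cond.2]. Summed over the 62, they took 1.44%, 0.790% and 0.918% of counts in ERR[cond.2] controls, and after knockout 0.322%, 0.857% and 0.608%. In ERR[cond.19-4] the sum was 0.0674% to 0.0692% in controls and 0.0765% to 0.0775% in knockouts. Every ERR[cond.2] library thus stood above every ERR[cond.19-4] library, and ERR[cond.2] knockout 1 came nearest. ERR[cond.2] control 1 was the highest of its group for 56 of the 62 genes (25.3% of all genes tested), and control 2 the lowest for 48 (16.7%). ERR[cond.2] knockout 1 was the lowest of its group for 56 (35.6%) and knockout 3 for the other 6, which were Sid, CG31793, Nepl14, Ugt49B1, Ugt37A3 and Rsod. Knockout 2 was the highest for 43 of the 62 (22.0%) and knockout 3 for 19 (39.0%). Genes of one library share its RNA, so these counts describe 6 libraries, not 62 separate observations.

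Markers of several tissues differed between the same libraries. In RNA of whole animals, fewer cells of a type and less RNA per cell cannot be told apart. The yolk protein genes Yp1, Yp2 and Yp3, made in the fat body and in follicle cells, took 8.65%, 5.65% and 8.26% of counts in ERR[cond.2] controls, 2.90%, 3.73% and 5.01% after knockout, and 2.77% to 3.37% in ERR[cond.19-4]. The 6 vitelline membrane genes of follicle cells, which build the inner eggshell, took 0.250%, 0.607% and 0.432% in ERR[cond.2] controls, 1.54%, 1.20% and 0.794% after knockout and 1.49% to 1.94% in ERR[cond.19-4]. The 9 chorion genes followed the same order, with 0.523% to 1.36% in ERR[cond.2] controls, 1.40% to 2.56% in ERR[cond.2] knockouts and 2.23% to 2.80% in ERR[cond.19-4]. ERR[cond.2] control 1, with the highest sum of the 62 genes, had the lowest share of both groups of eggshell genes. The ERR[cond.2] knockouts did not keep to that order. Knockout 2, with the highest sum among them, had larger shares than knockout 3 of vitelline membrane genes (1.20% and 0.794%) and of chorion genes (2.20% and 1.40%).

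The fat body list, with 3 of 4 names found, took 0.202%, 0.118% and 0.160% in ERR[cond.2] controls and 0.0442%, 0.115% and 0.0951% in the knockouts, against 0.0238% to 0.0342% in ERR[cond.19-4]. Its genes did not move as one. The mean of fat-spondin, a gene of the adult fat body, was 1400 CPM in ERR[cond.2] and 30.7 CPM in ERR[cond.19-4] controls, whereas Lsp2, a storage protein gene, was at 187 and 263 CPM and to, takeout, at 13.9 and 18.7 CPM. Send1 and Send2, endopeptidases of the female sperm store, together took 0.00681% to 0.0164% in ERR[cond.2] controls, 0.00511% to 0.0136% in ERR[cond.2] knockouts and 0.00232% to 0.00458% in ERR[cond.19-4]. They differed unequally, with control means of 48.1 CPM in ERR[cond.2] and 1.15 CPM in ERR[cond.19-4] for Send2 and of 56.1 and 31.6 CPM for Send1. Send1 was not called between the knockouts (log2 0.75, adjusted p = 0.291, edgeR). The haemocyte gene NimC1 had means of 35.1 and 25.5 CPM in ERR[cond.2] controls and knockouts and of 7.08 and 8.33 CPM in ERR[cond.19-4], while Hml, of the same cells, was at 17.9 to 23.0 CPM in all 4 groups. Germline genes took 0.122% to 0.140% in ERR[cond.2] and 0.136% to 0.143% in ERR[cond.19-4], and photoreceptor genes 0.0512% to 0.0567% and 0.0547% to 0.0630%. Midgut genes took 0.711% to 0.770% and 0.815% to 1.11%, muscle genes 0.0287% to 0.0373% and 0.0409% to 0.0524%, and genes of neurons 0.00214% to 0.00266% and 0.00236% to 0.00348%. The midgut list was split in the controls. Jon99Cii (949 CPM in ERR[cond.2], 2474 CPM in ERR[cond.19-4]), Jon99Ciii (929 and 2596 CPM) and betaTry (926 and 1383 CPM) were lower in ERR[cond.2]. Mal-A1 was higher there (891 and 441 CPM), and alphaTry, lambdaTry and Amy-p were slightly higher. The germline list was split in the controls as well. With the ERR[cond.2] mean first, nos (221 and 146 CPM) and vas (165 and 152 CPM) were higher in ERR[cond.2]. Lower there were bam (13.7 and 27.4 CPM), aub (58.3 and 78.4 CPM), piwi (81.1 and 117 CPM) and osk (771 and 878 CPM). The part of these tissues in the differences of the 62 genes was not tested.

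**Figure D4:**
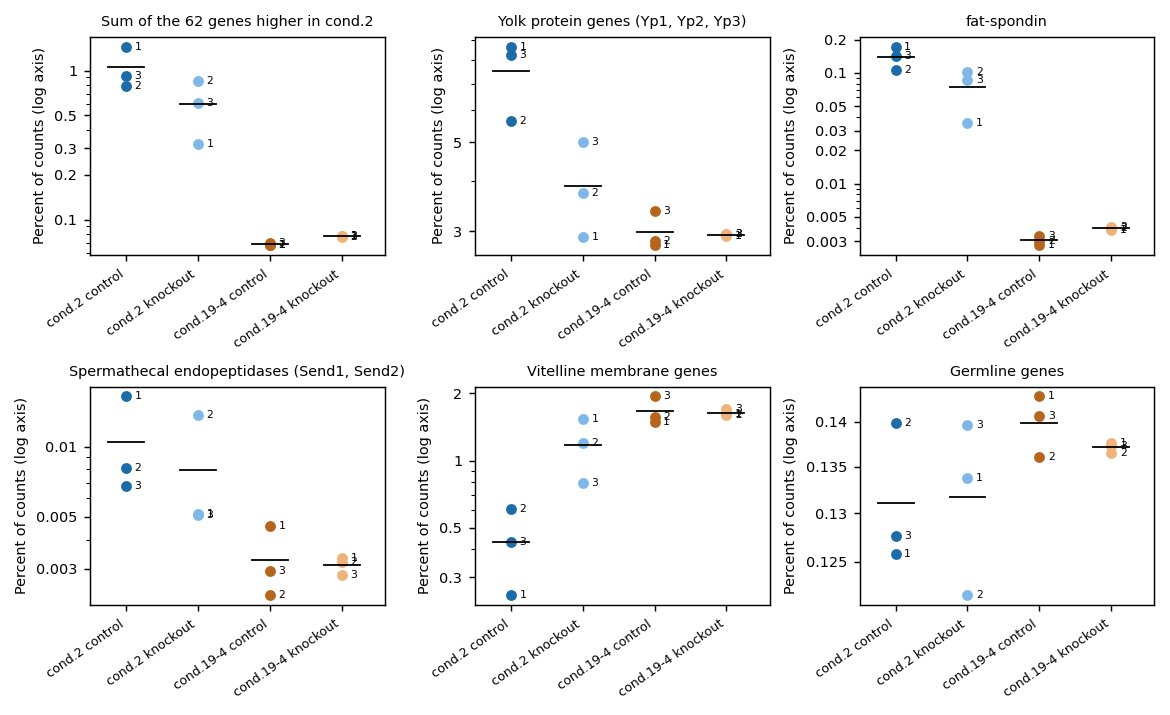
Percent of the counts of each library (log axis) taken by the 62 genes together and by 5 other genes or groups of genes, with 1 point per library numbered within its group and a line at the group mean. The sum of the 62 genes runs from 0.322% to 1.44% in ERR[cond.2] and from 0.0674% to 0.0775% in ERR[cond.19-4]. Vitelline membrane genes run the other way in the ERR[cond.2] controls. The sum of the germline genes, which did not move as one, lies between 0.122% and 0.143%.

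Within a stock the knockout was set beside its own controls, as the study's design does. Because the controls chose the genes, a fall from the higher control group is favoured by the choice, and these values are described without a test. In ERR[cond.2] the median log2 of knockout over control was -0.92 over the 62 genes, beside -0.01 over all genes tested, and 61 were negative. It ran from -2.06 for CG30002 to 0.14 for CG32302. A log2 of -1 or lower was reached by 24 of the 62 and by 2.28% of all genes tested, and nothing is read from that count. It depended on single libraries and was 7 without ERR[cond.2] control 1, 37 without control 2, 5 without knockout 1 and 48 without knockout 2. All 3 knockouts lay below all 3 controls for 24 of the 62, beside 8.02% of all genes tested, and the rule used these controls too. The largest falls were those of CG30002 at -2.06, CG8654 at -1.96, CG1090 at -1.75, CG14642 at -1.47 and CG17739 at -1.43. Ugt49B1 and CG31793 had nearly equal means in both arms, at log2 -0.02 each, with knockout 2 above and knockouts 1 and 3 below every control.

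In ERR[cond.19-4] 58 of the 62 genes were tested, and CG14384, CG18265, Rsod (CG31028) and CG1090 were too low. Here the genes were chosen from the lower control group, so a rise is favoured. The median log2 of knockout over control was 0.22, beside 0.00 over all genes tested, with 47 positive and 11 negative. It ran from -0.51 for Nep6 to 1.59 for CG10814. An absolute log2 of at least 1 was reached by 3 genes, CG10814, CG17264 at 1.28 and CG14642 at 1.22, and by 1.38% of all genes tested, and again nothing is read from it. CG10814 was at 0.971, 1.58 and 0.722 CPM in ERR[cond.19-4] controls and at 2.74, 1.92 and 5.15 CPM in the knockouts. CG17264 was at 2.04 to 3.09 CPM and at 4.61 to 7.07 CPM. In ERR[cond.2] knockouts CG10814 was at 5.48 to 24.1 CPM, so that its lowest library was close to the highest of ERR[cond.19-4], and its call between the stocks was lost when any 1 of 4 knockout libraries was left out. CG17264 was at 25.4 to 63.9 CPM in ERR[cond.2] knockouts, above all ERR[cond.19-4] libraries. For 6 of the 62 genes all ERR[cond.2] knockouts lay below and all ERR[cond.19-4] knockouts above their own controls, beside 0.645% of genes tested in both stocks, and the choice by the controls favours both directions. CG13947 had a log2 of knockout over control of 0.03 in ERR[cond.2] and -0.12 in ERR[cond.19-4].

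**Figure D5:**
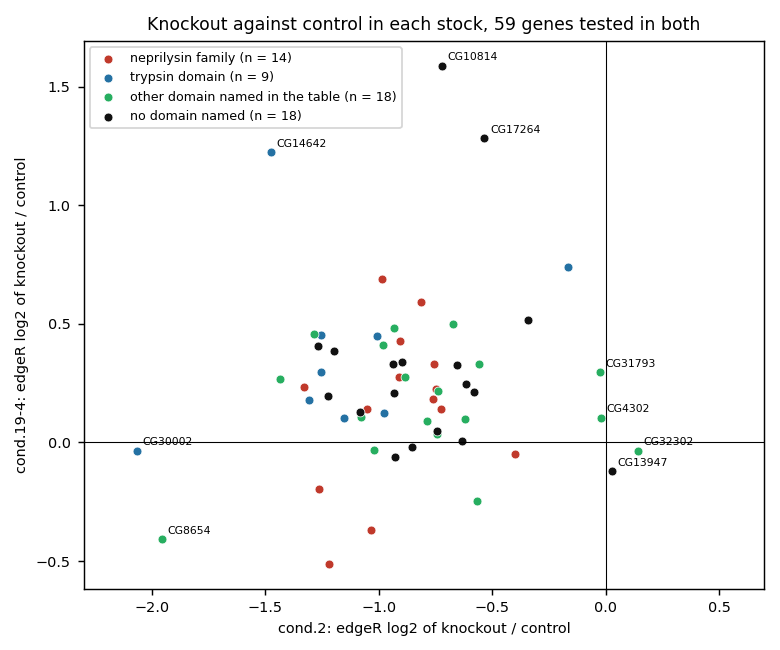
Log2 of knockout over control in ERR[cond.2] (horizontal axis) and in ERR[cond.19-4] (vertical axis) for the 59 of the 63 genes tested in both, coloured by class, with the outermost named. Most points lie left of 0 and a little above it, between -2.06 and 0.14 on the horizontal axis and between -0.51 and 1.59 on the vertical axis.

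The classes were described in the same way. The median log2 of knockout over control in ERR[cond.2] was -0.91 for the neprilysin family, -1.25 for the trypsin-domain genes, -0.79 for genes with another domain and -0.87 for those with none, and in ERR[cond.19-4] the medians were 0.20, 0.30, 0.16 and 0.25. No difference between classes was tested.

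The pattern was not limited to CG-named genes. Of the 62 other protein coding genes that passed the same limits in the controls, 60 were higher in ERR[cond.2]. Of these 52 had at least 10 counts in each knockout library and 50 of the 52 were called higher, with a median log2 difference of 2.63 beside 3.13 for the 58 CG-named genes with as many counts. No difference between these sets was tested.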

How the data were processed

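Whole females were sequenced in 12 libraries of paired 150 bp reads, prepared with a NEBNext Ultra kit. The authors aligned reads with TopHat and deposited the HTSeq counts of each gene without normalization (versions, build and strand: not given in the sources used here). Levels per kb used the gene length in bp from the same table, a deposited value of the other kind. The authors' own comparisons were made with DESeq2.

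The members and lists were chosen with earlier results of these data known. The 6 knockout libraries were fitted in R 4.3.3 by edgeR 4.0.16 (quasi-likelihood, glmQLFTest), with TMM scaling, filterByExpr and Benjamini-Hochberg adjustment over 9770 genes. The same fit for each stock, on 9660 genes of ERR[cond.2] females and 9717 of ERR[cond.19-4] females, gave knockout over control without a test. CPM was the count over the library total, times 1e6, and the smallest detectable level, 3 counts, was 0.145 to 0.175 CPM. The libraries come from 3 experiments, and p-values measure the spread between them. The design was tested on simulated data.

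Genes were named by rule: the 8 highest and the 6 with the largest ratio in each direction, those within 10 kb of another, those at the limit, those not called and the 5 with the largest change in each stock, which gave 33. Other genes of the set were named by their role, and Cyp304a1, Gbp, grsm, Ela and others as neighbours or family members, after their values were seen. Current symbols came from a table of gene identifiers.

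Alternatives were DESeq2 1.42.0, its size factors, total counts as library size, other filters and thresholds, 1 fit of all 12 libraries, the replicate number as a block, other limits of the rule and each library left out. Same-numbered libraries did not deviate together (correlations of -0.295 to 0.0963). Python 3.11.15 with numpy 2.4.6, pandas 2.3.3 and matplotlib 3.10.9 produced the tables and plots.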

Additional observations from a re-analysis of the deposited data

Results flagged for a closer look

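For 5 of the named genes all 3 ERR[cond.2] knockouts lay below their controls while all 3 ERR[cond.19-4] knockouts lay above theirs. The log2 of knockout over control, with the ERR[cond.2] value first, was -1.20 and 0.39 for CG3246, -1.33 and 0.23 for CG9780 (Nepl11), -1.25 and 0.30 for CG9649, -1.47 and 1.22 for CG14642, and -1.27 and 0.41 for CG42369. The difference between the stocks in this response was not tested, since the control values chose the genes with opposite bias in the 2 stocks. The pattern was seen in 6 of the 62 genes in all.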

How the results depend on the processing

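All 63 genes were called in the direction of the controls with DESeq2, with its size factors and with total counts as library size. The same held with every gene of at least 1 count and with all 12 libraries in 1 fit, and 54 were called at a threshold of 0.01. These counts, and those with 1 library left out, include CG14384, CG18265, CG31028 and CG1090. Nothing is read from the calls of those 4 genes, which passed the filter on low counts in the main fit only through ERR[cond.2]. With at least 10 counts in every library 59 were called, and CG14384, CG18265, CG31028 and CG1090 were not tested. The replicate numbers did not pair the libraries, and a fit with the number as a replicate block called 59, without CG30002, CG14642, CG1773 and CG8654 (highest adjusted p 0.0712). Leaving out 1 knockout library left 55 to 63 called. The same 4 were lost without any library but ERR[cond.2] knockout 1, CG10814 without ERR[cond.19-4] knockout 1 or 2 or ERR[cond.2] knockout 2 or 3, CG4301 without ERR[cond.19-4] knockout 1 or 3, and CG31028, CG9507 and CG1090 without ERR[cond.19-4] knockout 2. No gene changed direction under these settings. The median log2 difference of the 62 genes, 3.18, was 2.67 without ERR[cond.2] knockout 2 and 3.48 without knockout 1. In the main fit the median was 3.13 over the 58 higher genes with at least 10 counts in each knockout library. The genes called over the whole table, 1700, numbered 674 to 2578 with 1 library left out, 565 at a threshold of 0.01 and 581 with an absolute log2 of at least 1. With total counts as library size 2248 were called.

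The rule gave 133 genes at 4-fold, 23 at 16-fold, 58 at 10 CPM, 69 with 0.1 added and 70 with TMM-scaled library sizes, and 51 to 75 with 1 control library left out, 51 being without ERR[cond.2] control 1. The count of 24 genes at a log2 of -1 or lower in ERR[cond.2] was 5 to 48 with 1 library left out, 26 with the replicate block and 16 with total counts as library size. The 3 genes at an absolute log2 of at least 1 in ERR[cond.19-4] became 4 to 5. With 3 libraries per group a single library carries much of each count, and the cause of the dependence was not tested.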
